A study of Mus musculus with 2 samples.

Results

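The 7 keratin genes described here are Krt6a, Krt6b, Krt16, Krt17, Krt23, Krt75 and Krt79, a set of stress, companion-layer and upper follicle keratins. They were picked by name, through the array's symbol or an older name, and with earlier results of these data known. They are represented by 11 of 25697 probes on the array, and they are 7 of 17871 genes named there. All 7 had a main probe, the probe of a gene with the highest mean log2 signal, above background on both arrays.

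Epidermis lifted with dispase from the back skin of C57BL6 mice at postnatal day 5 was profiled on Illumina arrays. The knockout group, DKO, had the genotype VDR fl/fl CaSR fl/fl with Cre driven by keratin 14 (K14), which removes the vitamin D receptor (VDR) and the calcium-sensing receptor (CaSR) from keratinocytes that express keratin 14. The control group, CON, consisted of littermates with the genotype VDR fl/fl CaSR fl/fl, so both groups carried the same floxed alleles. Per the labels' protocol, RNA of 3 mice was combined in each group, and the files hold 1 array per group. The design text gives 3 for each group and describes the RNA of 3 mice in each sample, and a sentence of the protocol text calls the second pool VDR KO where title and genotype name both receptors. Recombination in cells that do not express keratin 14, such as melanocytes and T cells, is not part of this model. With 1 array per group the spread between mice was not measured, no test was run, and no difference below has a replicate check.

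Keratins are the intermediate filament proteins of epithelial cells, and each filament is built from a type I and a type II keratin. Basal keratinocytes use the pair Krt5 and Krt14, and cells leaving the basal layer use Krt1 and Krt10. Krt6a, Krt6b, Krt16 and Krt17 are made in the hair follicle and in other epithelial appendages, and they are induced in the epidermis between follicles after wounding and in hyperproliferative skin disease. Krt75 is the type II keratin of the companion layer, the cell layer between the outer and the inner root sheath of the hair follicle. In mice Krt79 marks the upper follicle and the duct of the sebaceous gland.

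The members lie in the 2 keratin clusters of the mouse genome. Among protein-coding genes of the RefSeq table, Krt6b and Krt6a are neighbours on chromosome 15, where Krt75 and Krt79 also lie. Krt16 and Krt17 are neighbours on chromosome 11, which also holds Krt23. RefSeq promoter sequences (build GRCm38.p6) were matched for 3 of the 7 members, Krt23, Krt75 and Krt79. These 3 are the only members with a sequence in the promoter set used here. Their sequences are shown because the removed VDR is a DNA-binding receptor, and Krt75 and Krt79 had the lowest differences of the members. Each line gives the 250 bases before the start of the gene, 5′ to 3′ on the gene's strand, which is the minus strand for all 3. The positions are chr11:99493121-99493370 for Krt23, chr15:101573905-101574154 for Krt75 and chr15:101940325-101940574 for Krt79. Capitals mark matches to the motifs named after the sequences.
Krt23: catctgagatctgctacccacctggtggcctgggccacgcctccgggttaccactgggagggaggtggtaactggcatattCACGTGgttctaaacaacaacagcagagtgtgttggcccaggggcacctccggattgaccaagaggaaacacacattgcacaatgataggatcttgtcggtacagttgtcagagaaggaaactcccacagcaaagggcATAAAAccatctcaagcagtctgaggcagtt
Krt75: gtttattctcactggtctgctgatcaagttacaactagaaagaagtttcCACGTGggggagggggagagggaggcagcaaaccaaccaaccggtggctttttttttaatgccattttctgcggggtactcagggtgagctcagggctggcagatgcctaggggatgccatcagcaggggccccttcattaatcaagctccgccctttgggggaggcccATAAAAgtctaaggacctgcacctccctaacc
Krt79: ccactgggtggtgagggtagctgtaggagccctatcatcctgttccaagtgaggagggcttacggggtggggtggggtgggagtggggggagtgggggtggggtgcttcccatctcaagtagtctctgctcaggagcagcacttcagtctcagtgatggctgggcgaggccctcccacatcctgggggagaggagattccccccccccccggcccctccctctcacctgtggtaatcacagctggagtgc
Both strands were searched for exact matches, with N as any base, and variants of the motifs, the half-site included, were not searched. The first motif was the E-box CACGTG, which several families of helix-loop-helix factors bind. The second was the TATA-like element ATAAAA. The third was the AP-1 motif, spelled TGANTCA. The last were the consensus half-site of VDR and related nuclear receptors, AGGTCA, and the direct repeat of that half-site with 3 bases between its copies. The motifs were chosen after the sequences had been seen. The Krt23 and Krt75 promoters each held 1 E-box and 1 ATAAAA match, the latter 31 to 26 bases before the start in Krt23 and 32 to 27 bases before it in Krt75. No searched motif matched in the Krt79 window, and neither the AP-1 motif nor the half-site matched in any of the 3. Of 32851 RefSeq promoter windows of the same length, 17.0% held ATAAAA, 6.02% CACGTG, 6.75% the AP-1 motif, 14.0% the half-site and 0.00609% the direct repeat. These matches describe letters only and say nothing of binding.

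Facts of the whole pair of arrays come first. A probe was called detected at a detection p-value under 0.01, which is a p against the negative controls of its own array and no comparison of groups. By that rule 41.9% of probes were detected on CON and 40.6% on DKO, and 8472 genes had a main probe detected on at least 1 array. The keratins of the epidermis were bright on both arrays, with Krt14 at 14.28 (log2) on each. Of 10 dermal fibroblast genes 4 were detected, and the collagen genes Col1a1, Col1a2 and Col3a1 were not. The 3 Vdr probes differed by -0.12, -0.24 and -0.82 (log2), and the single Casr probe missed the detection threshold on CON and DKO. The files do not place these probes relative to the deleted exons, so they do not check the labels. The pools also differed in sex-linked RNA, with Ddx3y, a gene of the Y chromosome, at 6.89 on CON and 10.31 on DKO by its main probe (log2), and the part of this in the values below was not tested.

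None of the 7 keratins differed by 2-fold between the arrays. Krt16 was 1.53-fold higher on the DKO array, Krt75 1.67-fold lower and Krt79 1.4985-fold lower. Krt6b was 1.30-fold lower, and Krt6a, Krt17 and Krt23 differed by at most 1.05-fold. Of all 8472 detected genes 2.44% differed by 2-fold or more, 1.05% of them higher and 1.39% lower, so a count of 0 among 7 genes is near that background. The median log2 difference, DKO minus CON, was -0.07 over the 7 keratins and -0.02 over all detected genes, with 3 members higher and 4 lower. Over all detected genes 47.1% were higher and 52.6% lower.

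**Figure D1:**
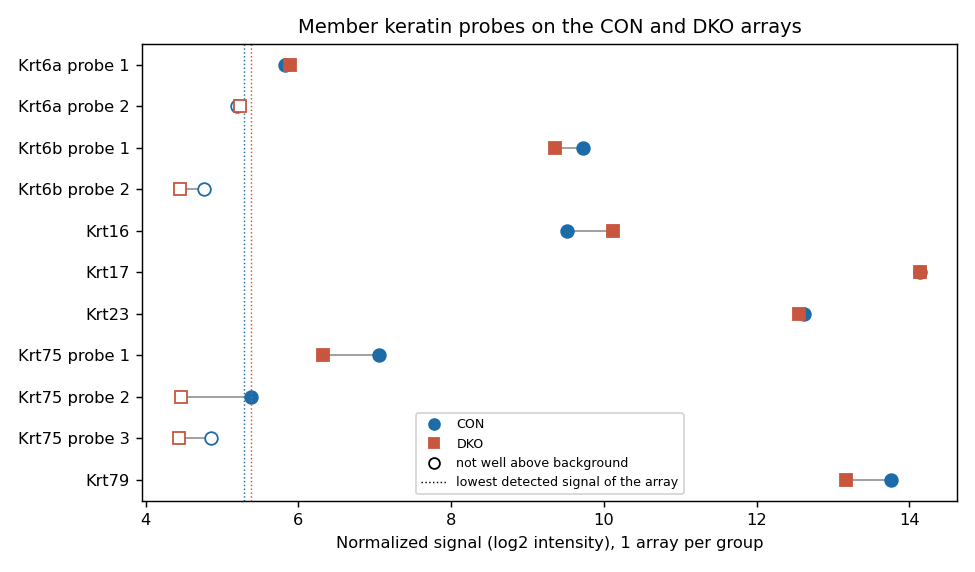
Normalized signal (log2 intensity, horizontal axis) of the 11 probes of the 7 keratins on the CON array (circles) and the DKO array (squares), with open symbols where the probe was not well above background. The Krt16 probe lies to the right on DKO, the Krt75, Krt79 and Krt6b probes lie to the left, and both symbols nearly coincide for Krt17 and Krt23. Levels of different probes cannot be set against each other.

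The stress keratins differed in both directions. Krt16, the type I keratin that pairs with keratin 6 in wounded epidermis, had a raw signal of 888.6 on CON and 1154.1 on DKO, and a normalized log2 signal of 9.51 and 10.12. Its difference of 0.61 placed it at percentile 94.4 of all detected genes, counted from the lowest difference. It was the only member above 1.5-fold in this direction, a fold at which 6.09% of all detected genes were higher and which was chosen with the members' values known. It fell short of that fold without background correction (0.54), under median scaling (0.55) and in the authors' deposited table (0.51). Krt16 is measured by 1 probe, so no other probe of the gene bears on that value.

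The type II partners of Krt16 did not show a like difference. The main probe of Krt6b had a raw signal of 1012.6 on CON and 718.5 on DKO, which normalized to 9.73 and 9.35 (log2), a difference of -0.37. The other Krt6b probe was undetected on CON and DKO alike. The main probe of Krt6a was dim, with raw signals of 171.0 and 167.2 and normalized values of 5.82 and 5.89, against a lowest detected signal of 5.29 on CON and 5.38 on DKO. It differed by 0.06, and the other Krt6a probe missed the detection threshold on both. Krt6a and Krt6b are closely related neighbouring genes, and with no probe sequences in the files used here it is uncertain how far each probe separates them. Their values are therefore open to shared signal.

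Krt17, a type I keratin of the outer root sheath that is also induced by stress, was nearly equal on the arrays, and differed by 0.17 under median scaling. Its raw signal was 18194.7 on CON and 18173.0 on DKO, and its normalized log2 signal was 14.13 and 14.14. This probe ranked 36 from the brightest of 25697 probes on CON and 34 on DKO, where the brightest raw signals were 25756.4 and 25899.8. Whether signals this bright understate differences was not tested. Krt17 and its chromosomal neighbour Krt16 thus differed by 0.01 and 0.61, while Krt14, on the other side of Krt16, differed by 0.00. Quantile normalization gives probes of equal rank on the 2 arrays the same value, so the 0.00 of Krt14 does not measure how equal its RNA was.

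The companion-layer keratin Krt75 was lower on DKO. Its main probe had raw signals of 252.8 on CON and 186.6 on DKO, and normalized values of 7.06 and 6.32 (log2), a difference of -0.74 at percentile 3.88 of all detected genes. A further Krt75 probe was above background on CON alone, where it read 5.39, and its fold is bounded at no less than 1.005. The remaining Krt75 probe was undetected on both. On chromosome 15 the coding gene on one side of Krt75 is Krt90, which was at least 1.76-fold lower on DKO, where it was dim, and Gm5414, on the other side, was not analysed here. The evidence on Krt75 therefore comes from 1 probe of modest brightness. Its difference was -0.36 without background correction and -0.40 in the authors' deposited table. The lowest value on CON in that table, 106.2, is close to the lowest raw value of 104.4. The normalization behind that table was not given, and the part of background in its smaller difference was not tested.

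The upper follicle keratin Krt79 was lower on DKO at a high signal. Its probe read 14108.9 raw units on CON and 8988.9 on DKO, and 13.76 and 13.17 after normalization (log2). The difference of -0.58 lay at percentile 7.45 of all detected genes. It sat just under the fold of 1.5, past which 7.37% of detected genes were lower. On chromosome 15 the coding genes on either side of Krt79 are Krt4, which was not detected, and Krt78, a type II keratin, which differed by 0.80.

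Krt23, a type I keratin, was nearly equal. Its raw signal was 6709.9 on CON and 5891.8 on DKO, and its normalized log2 signal was 12.62 and 12.55. The ratio of DKO over CON was 0.878 in raw signal and 0.947 in the authors' deposited table. The normalized difference of -0.07 lay at percentile 44.2 of all detected genes.

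Over 2047 genes with more than 1 detected probe, the pooled SD between the probes of a gene was 0.30 (log2). This is a spread between probes on the same arrays, not between mice. The differences of Krt16, Krt75, Krt79 and Krt6b exceeded it, and those of Krt6a, Krt17 and Krt23 did not. All 7 members lay inside the range of -0.84 to 0.80 that held the central 95% of detected genes.

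No member changed sign under the 9 alternative ways of processing, 4 of which recompute the signal itself. Krt16 stayed between 0.51 and 0.61 and Krt79 between -0.58 and -0.49. Krt6b ranged from -0.45 to -0.30, Krt75 from -0.83 to -0.36, Krt23 from -0.08 to -0.04, Krt17 from 0.010 to 0.17 and Krt6a from 0.0077 to 0.062. These alternatives reuse the same 2 arrays. For Krt75 4 of the 9, and for each other member at least 5, returned the identical value, since changes of the detection filter, the bound on dim values and, except for Krt75, the averaging of probes leave these main probes as they were.

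**Figure D2:**
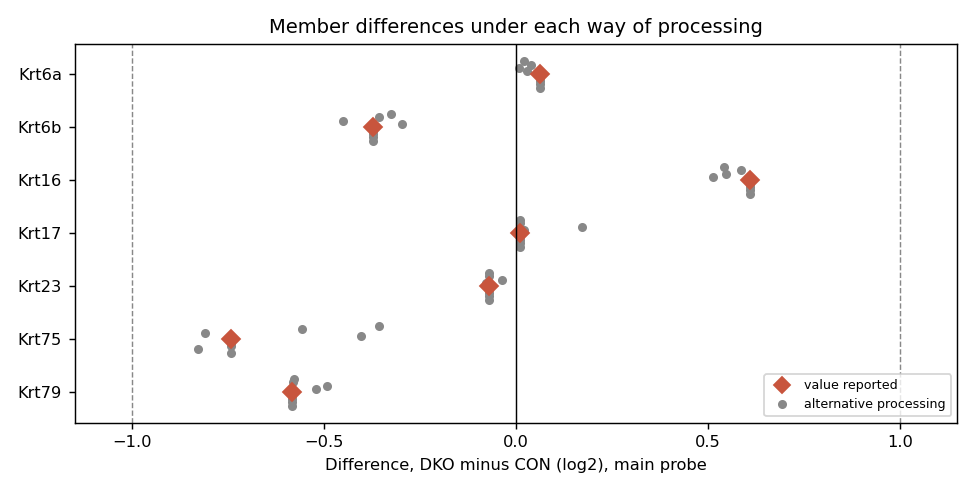
Difference of each keratin, DKO minus CON (log2, horizontal axis), as reported (diamonds) and under the 9 alternatives (points, spread vertically for visibility). Dashed lines mark 2-fold, which no value reaches. Krt75 has the widest range, from -0.83 to -0.36.

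Set among all detected keratins, the 7 members took middle to high positions, below which lay most keratins of the hair shaft and inner root sheath. Of 37 detected keratin genes ordered from the lowest difference, Krt75 was at position 17, Krt79 at 18, Krt6b at 22, Krt23 at 26, Krt17 at 29, Krt6a at 31 and Krt16 at 35. Only Krt1 (0.64) and Krt78 (0.80) stood above Krt16. Neighbouring positions of the 37 differed by less than the spread between probes of a gene.

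**Figure D3:**
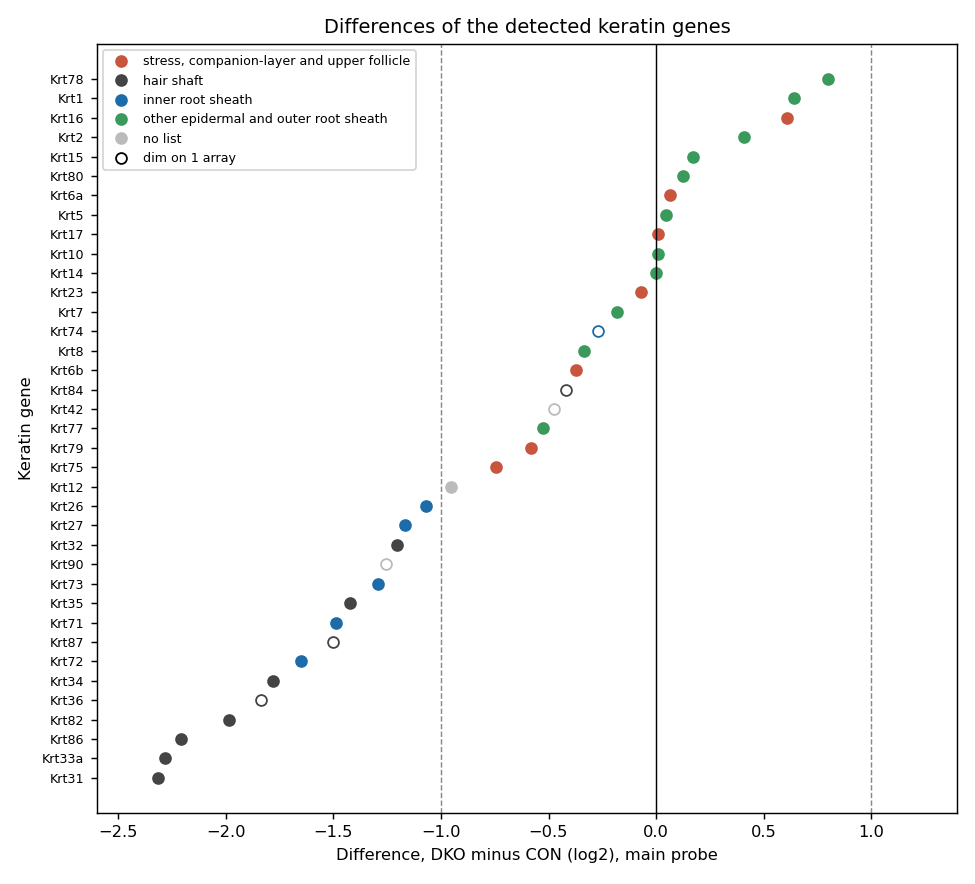
Difference, DKO minus CON (log2, horizontal axis), of the main probe of each of 37 detected keratin genes, coloured by class, with open symbols where 1 array was not well above background. The 7 keratins described here lie between -0.74 and 0.61, inside the dashed lines at 2-fold, while most hair shaft and inner root sheath keratins lie beyond the left line.

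The median of the hair shaft keratins was -1.81 (log2) across 10 detected genes, 9 of them at least 2-fold lower, and with dim values raised to their bound it was -1.72 with 8 at least 2-fold lower. The inner root sheath keratins lay at a median of -1.23 across 6 detected genes, 5 of them at least 2-fold lower. Over all detected genes 1.39% were at least 2-fold lower. The companion layer touches the inner root sheath, and Krt75 at -0.74 was nearer to 0 than the 5 genes of that list detected on both arrays, of which Krt26 (-1.07) was the closest to it. The remaining detected gene, Krt74, was dim on DKO and differed by -0.27, or by 0.04 with the dim value at its bound. The 11 other detected keratins of the epidermis and outer root sheath had a median of 0.04, or 0.21 under median scaling. Over all detected genes 47.1% were higher and 52.6% lower, and of these 11 keratins 7 were higher, 3 lower and none at 2-fold as reported. Among them Krt15, a keratin of basal cells and the outer root sheath, differed by 0.17, Krt77 by -0.52 and Krt2 by 0.41. In epidermis taken as bulk tissue, fewer cells of a type and less RNA per cell cannot be told apart.

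Genes of the upper follicle were lower beside Krt79, each by little. All 6 detected genes of a 10-gene list were lower, 0 of them by 2-fold, with a median of -0.19, where 52.6% of all detected genes were lower. Defb6, a beta-defensin, differed by -0.41, Gata6, a transcription factor of the sebaceous duct, by -0.41, Lrig1, a marker of junctional zone stem cells, by -0.21, and Fst, an activin antagonist, by -0.18. Each of the 6 differed by less than Krt79. Sebocyte genes, whose gland opens through the Krt79-positive duct, were mixed, with 4 of 9 detected genes higher, 5 lower and a median of -0.10. Dgat2 of that list differed by 0.69 and Scd1 by -0.40, and Plin2 and Pparg by -0.38 and -0.35.

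Genes of the outer root sheath and bulge were mostly lower. Of 8 detected genes, 3 of them dim on 1 array, 7 were lower, where 52.6% of all detected genes were lower. Their median was -0.44, or -0.30 without background correction and -0.31 in the authors' deposited table. Sox9, a regulator of outer root sheath and bulge cells, was 2.14-fold lower. Nfatc1 differed by -0.60 by its main probe, and its 4 detected probes ranged from -1.13 to -0.45. Lgr5, a receptor on follicle stem cells, differed by -0.54, and Cd34, dim on CON, was at least 1.19-fold higher. Krt17, which the outer root sheath also makes, differed by 0.01 on the same arrays, or by 0.17 under median scaling. Its probe was among the brightest on both arrays. Hair matrix and bulb genes had a median of -0.53 with 6 of 8 lower, and the median was -0.28 without background correction and -0.31 in the authors' deposited table. Among them were Hoxc13 (-0.999), Msx1 (-0.80), Msx2 (-0.70) and Trps1 (-0.64), transcription factors of the hair lineage. The part of these follicle genes in the values of Krt75 and Krt79 was not tested.

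Genes known to act upstream of the stress keratins lay within 2-fold. Of 33 listed regulators and receptors, not all of them activators, 20 were detected, 14 higher and 6 lower, with a median of 0.08. Over all detected genes 47.1% were higher. Ifngr1, a subunit of the interferon gamma receptor, differed by 0.66. Nfe2l2, the transcription factor NRF2, which activates stress keratin genes in human keratinocytes, differed by 0.50, and the cytokine Il1a by 0.48. Rela, a subunit of NF-kappaB, differed by -0.41. Egfr, the receptor for epidermal growth factor, differed by -0.36 by its main probe, and its 4 detected probes ranged from -0.36 to 0.16. The AP-1 genes Fos, Jun and Junb differed by 0.40, -0.15 and 0.01.

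Other genes that accompany the stress keratins in hyperproliferative skin differed in both directions. Of 26 listed genes 11 were detected, 7 higher and 4 lower, where 47.1% of all detected genes were higher. The list's median was 0.35, or 0.11 without background correction. Sprr2d, a small proline-rich cornified envelope precursor, was 3.14-fold higher and S100a9, an alarmin subunit, was 2.42-fold lower, while its partner S100a8 differed by -0.13. S100a9 had 1 detected probe, which read 5.49 (log2) on DKO, close to that array's lowest detected signal of 5.38. Lce3c and Sprr1b, which encode cornified envelope proteins, differed by 0.52 and 0.47. Lcn2, Ptgs2 and Cxcl1, which inflamed skin makes, were detected on neither array. Krt16 at 0.61 was thus above the list's median and Krt6a, Krt6b and Krt17 below it.

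Genes for proteins that link keratin filaments to desmosomes and hemidesmosomes, or that bind keratins, listed together with the keratinocyte transcription factor gene Trp63, had a median of -0.06, with 9 of 11 detected genes lower. Over all detected genes 52.6% were lower, and the list's median was smaller in size than the spread of 0.30 between probes of a gene. Jup, plakoglobin, differed by 0.84, and Dsp, desmoplakin, the main anchor of keratin filaments, by -0.39. Trp63 itself differed by -0.29. Pkp2, plakophilin 2, was 2.11-fold lower by its main probe, and its 3 detected probes ranged from -1.08 to -0.16. The basal pair Krt5 and Krt14 differed by 0.04 and 0.00, the latter fixed by equal rank under quantile normalization.

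**Figure D4:**
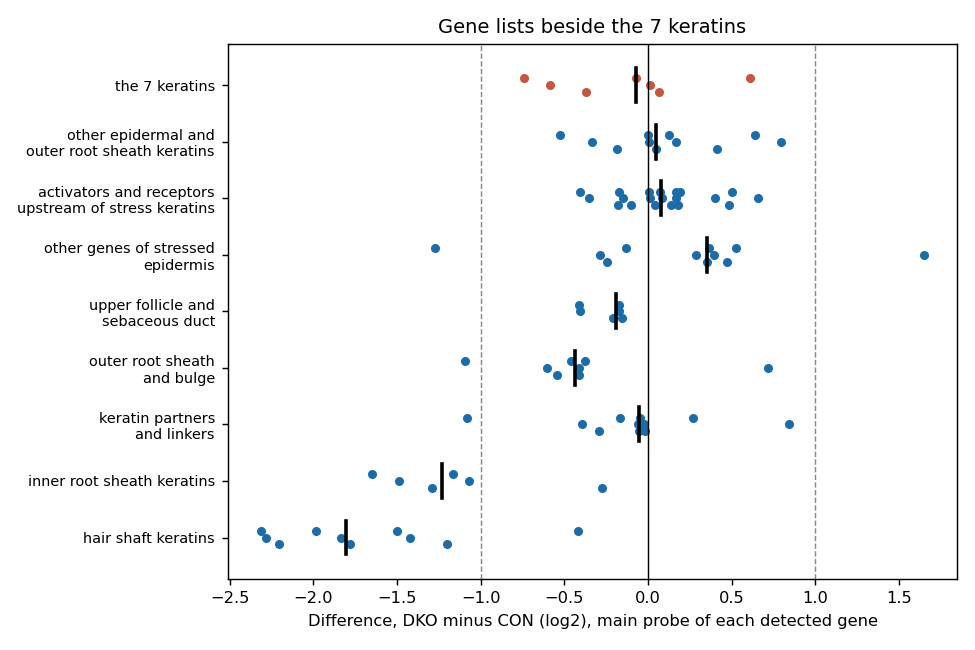
Difference, DKO minus CON (log2, horizontal axis), of the main probe of every detected gene in 9 lists (points), with the list's median as a black bar and dashed lines at 2-fold. The 7 keratins straddle 0, all 6 upper follicle genes lie left of 0, and the hair shaft and inner root sheath keratins lie farthest left.

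Melanocyte genes, a check on other cells of the follicle, had 6 of 7 detected genes lower, where 52.6% of all detected genes were lower. Their median was -0.47, or -0.29 with detected probes averaged, with Gpnmb at -0.94, Ednrb at -0.71, Pmel at -0.61 and Mlana at -0.47. The other detected probe of Gpnmb differed by -0.15 and that of Pmel by 0.26. The dermal fibroblast genes that were detected had a median of 0.04, and of -0.04 under median scaling, with Mgp 2.35-fold lower, Sparc at 0.41, Dcn at 0.13 and Vim at -0.05. The part of either cell type in the keratin values was not tested.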

How the data were processed

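The authors deposited 2 tables, one of raw intensity and one of normalized intensity on a linear scale, each with a detection p-value for every probe. The submitters' processing notes name GenomeStudio 2011.1, and the normalization method was not given in the sources used here. Per the file headers, a line above the column names ties the columns to CON and DKO. The values listed for the series differ from the normalized table at 0 probes. The median of that table is 148.8 on CON and 148.9 on DKO.

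Raw intensity was background-corrected with limma 3.58.1 in R 4.3.3 (normexp with detection p-values, offset 16), quantile normalized and put on a log2 scale. Differences are DKO minus CON, and a fold is the higher over the lower normalized signal. Counts and medians use dim values as measured. Where a gene dim on 1 array is given a fold ("at least"), its dim value was first raised to the array's lowest detected signal if it lay below, and medians and counts with this bound are an alternative. Of 25697 probes 16938 were named by gene identifier, 7420 by accession, 465 by current and 553 by older symbol through the RefSeq table of GRCm38.p6, and 321 kept the array's name. The array lists the members under older names such as Krt1-16, Krt2-6a, Krtcap1 and BC031593. Named genes were drawn from the members, Vdr and Casr, Krt5 and Krt14, and the lists. As a rule, each list gave up to 4 genes with the largest absolute difference and any past 2-fold. No hair shaft keratin is named in the text, and of the inner root sheath keratins past 2-fold Krt26 alone is named. Other named list genes (Krt15, Krt74, Egfr, Fos, Jun, Junb, S100a8 and those not detected) were chosen after their values were seen. The members and the 12 lists were chosen with earlier results of these data known. Steps were tested on simulated data. With 1 array per group the number of arrays limits the precision, and no limma test could be run.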

Additional observations from a re-analysis of the deposited data

How the results depend on the processing

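Values were recomputed without background correction, with a normexp offset of 50, with median scaling, from the authors' deposited table, with detection on both arrays, no detection filter or a detection p under 0.05, with the mean over detected probes, and with dim values at their bound. The count of 0 members at 2-fold held in all 9. Krt75 moved further than the spread between probes without background correction (-0.36) and in the authors' deposited table (-0.40). The fold of 1.5, added after the values were seen, was passed by 2 members as reported (Krt16 and Krt75), by 1 with an offset of 50 (Krt16) or with median scaling (Krt75), and by 0 without background correction or in the authors' deposited table. Over all genes, 23 higher and 27 lower passed 2-fold without background correction, 43 and 58 with an offset of 50, 24 and 28 in the authors' deposited table, and 57 and 77 when both arrays had to be detected, against 89 and 118 as reported. The hair shaft median was -1.04 without background correction, -1.40 with an offset of 50 and -1.11 in the authors' deposited table. The cause of the smaller values was not tested. No paired analysis was possible because each group has 1 array, and no replicate could be left out.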
